A study of Mus musculus with 30 samples.

Results

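Runx2, Sp7, Dlx3, Dlx5, Dlx6 and Msx2 encode transcription factors of osteoblasts, and they were picked by name as 6 of the 55416 gene IDs in a table of raw read counts. All 6 symbols matched 1 gene ID each. The table covered bulk RNA sequencing of mouse fracture callus, the repair tissue that forms around a broken bone, at 3-, 6-, 10- and 14-days post fracture (dpf) in WT and Apex1 KO mice. Apex1 encodes a DNA repair endonuclease that also keeps transcription factors in a reduced state, and the comparison asked what its loss in limb mesenchyme does to the callus over time. The 30 mice were adults with a closed tibial fracture that was left without fixation. Apex1 KO mice carried Prrx1-Cre and 2 floxed Apex1 alleles (Apex1 C/C). Prrx1-Cre is active in limb bud mesenchyme, so blood, endothelial and muscle fibre cells in the callus kept the gene. The WT littermates were Apex1 C/C or Apex1 C/+ mice without Cre, or mice with Prrx1-Cre+/- and a single floxed allele, and the labels do not say which mouse was which. There were 4 WT (2 female) and 4 Apex1 KO mice (1 female) at 3-dpf, 5 WT (3 female) and 3 Apex1 KO mice (1 female) at 6-dpf, 4 WT (2 female) and 3 Apex1 KO mice (1 female) at 10-dpf, and 4 WT (1 female) and 3 Apex1 KO mice (all female) at 14-dpf.

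Osteoblasts arise from mesenchymal progenitors through an ordered set of DNA-binding proteins. Runx2, with its partner Cbfb, commits progenitors to the lineage, and Sp7 (Osterix) acts after it and is needed for a bone-forming osteoblast. The Dlx and Msx homeodomain proteins lie near BMP signals and bind overlapping AT-rich sites, with Dlx proteins mostly as activators and Msx2 mostly as a repressor. In a fracture callus, bone forms directly under the periosteum and, later, in place of a cartilage template, and Runx2 is also expressed in the hypertrophic chondrocytes of that template.

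The 6 genes lie on 5 chromosomes of the GRCm39 assembly. Runx2 (ENSMUSG00000039153) is at chr17:44806874-45125684, Sp7 (ENSMUSG00000060284) at chr15:102265038-102279370 and Msx2 (ENSMUSG00000021469) at chr13:53620914-53627110, all on the minus strand. Dlx3 (ENSMUSG00000001510) is at chr11:95010937-95016122 on the plus strand, 15150 bp from its neighbour Dlx4. Dlx5 (ENSMUSG00000029755, chr6:6877804-6882092, minus strand) and Dlx6 (ENSMUSG00000029754, chr6:6862989-6868568, plus strand) are a neighbouring pair 9235 bp apart, transcribed towards each other from opposite strands. The antisense transcript Dlx6os1 spans Dlx6 on the other strand. Reads were counted by strand, which separates Dlx6 from Dlx6os1, whereas Runx2 shares part of its same-strand span with the predicted gene Gm55647.

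Relative to Runx2, Dlx3 showed the widest gap between the genotypes and Dlx5 the narrowest, as given with the ratios, so the 250 bases before the start of Dlx3, Dlx5 and Dlx6 are shown, 5′ to 3′ on the strand of the gene. The windows are chr11:95010687-95010936 for Dlx3, chr6:6882093-6882342 for Dlx5 and chr6:6862739-6862988 for Dlx6 (GRCm39). Capitals mark matches, on either strand, to a RUNX motif (TGTGGT or ACCACA), a homeodomain motif (TAATTA or TAATTG or CAATTA) or a GC box (GGGCGG or CCGCCC). They also mark a TATA box (TATAAA), searched on the strand of the gene alone.
Dlx3: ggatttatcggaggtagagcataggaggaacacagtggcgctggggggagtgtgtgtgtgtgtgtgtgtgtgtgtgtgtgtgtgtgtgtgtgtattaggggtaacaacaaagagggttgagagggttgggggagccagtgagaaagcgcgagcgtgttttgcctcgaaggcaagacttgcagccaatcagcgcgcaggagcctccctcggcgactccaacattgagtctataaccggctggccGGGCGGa
Dlx5: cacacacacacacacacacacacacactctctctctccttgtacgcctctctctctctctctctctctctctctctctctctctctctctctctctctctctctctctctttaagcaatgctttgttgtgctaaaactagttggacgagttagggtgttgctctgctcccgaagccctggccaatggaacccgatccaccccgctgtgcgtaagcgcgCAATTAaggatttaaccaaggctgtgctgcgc
Dlx6: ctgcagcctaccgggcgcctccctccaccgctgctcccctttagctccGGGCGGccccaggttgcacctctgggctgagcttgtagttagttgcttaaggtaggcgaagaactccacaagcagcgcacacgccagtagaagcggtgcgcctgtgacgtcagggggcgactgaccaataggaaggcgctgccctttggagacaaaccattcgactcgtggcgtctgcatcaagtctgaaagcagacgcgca
The Dlx3 window held a GC box that began 7 bases before the start, and the Dlx6 window held a GC box that began 202 bases before it. The Dlx5 window held no GC box but had a homeodomain motif, CAATTA, 32 bases before the start. Among 21627 promoters of the same length, a GC box was present in 36.4%, a homeodomain motif in 11.9%, a RUNX motif in 13.1% and a TATA box in 8.06%. None of the 6 members had a RUNX motif in its window, which says only that these letters are not there. GC content was 56.8% for Dlx3, 52% for Dlx5 and 61.2% for Dlx6, with a median of 53.2% over all promoters. The Dlx6 window also holds an exon of Dlx6os1 on the other strand.

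Library totals ranged from 23476327 to 43111491 counted reads at 3- and 6-dpf and from 18334389 to 25185562 at 10- and 14-dpf. Sample names also changed in form between 6- and 10-dpf. The labels name no batch, a difference in handling and the day cannot be told apart across that step, and these days were not tested against each other. No library went against its labelled sex (0 of 30). Levels are CPM, reads of a gene as a share of the library, scaled once over the 30 libraries, and adjusted p-values are from edgeR's quasi-likelihood test with genotype and sex in the model of each day, with Benjamini-Hochberg adjustment over all genes tested. A gene was called where the adjusted p was under 0.05. The targeted gene, Apex1, was at 26.4 to 33.1 CPM in WT and 18.4 to 34.5 CPM in Apex1 KO mice at 3-dpf. At 6-dpf it was at 20.7 to 28.9 CPM in WT against 15.1 to 15.8 CPM in Apex1 KO mice (log2 difference -0.67 ± 0.11 SE, adjusted p = 0.0071), and at 10-dpf at 16.9 to 27.5 against 14 to 16.8 CPM (-0.65 ± 0.13, adjusted p = 0.0278). At 14-dpf it was at 19.8 to 27.2 against 14.2 to 18.6 CPM (-0.29 ± 0.19, adjusted p = 0.367), and with no sex term, since a single WT mouse of that day was female, the difference was -0.55 (adjusted p = 0.0187). At 3-dpf the ranges overlapped (adjusted p = 0.927), so the label check does not separate the genotypes at that day. The counts were summed over all exons and do not measure the deleted part by itself.

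Runx2, Sp7, Dlx3, Dlx5 and Dlx6 were lower in Apex1 KO than in WT callus at 6-, 10- and 14-dpf, at each day with no overlap between the genotypes, and none of the members was called at 3-dpf. The gap was narrowest for Runx2, with a level 1.58-fold lower at 6-dpf, 1.83-fold lower at 10-dpf and 2.45-fold lower at 14-dpf. It was widest for Dlx3, at 2.81-, 3.71- and 7.18-fold lower on the same days. Msx2 had 22 reads or fewer in every library and showed no called difference. In bulk callus, fewer cells of a type and less RNA per cell cannot be told apart.

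**Figure D1:**
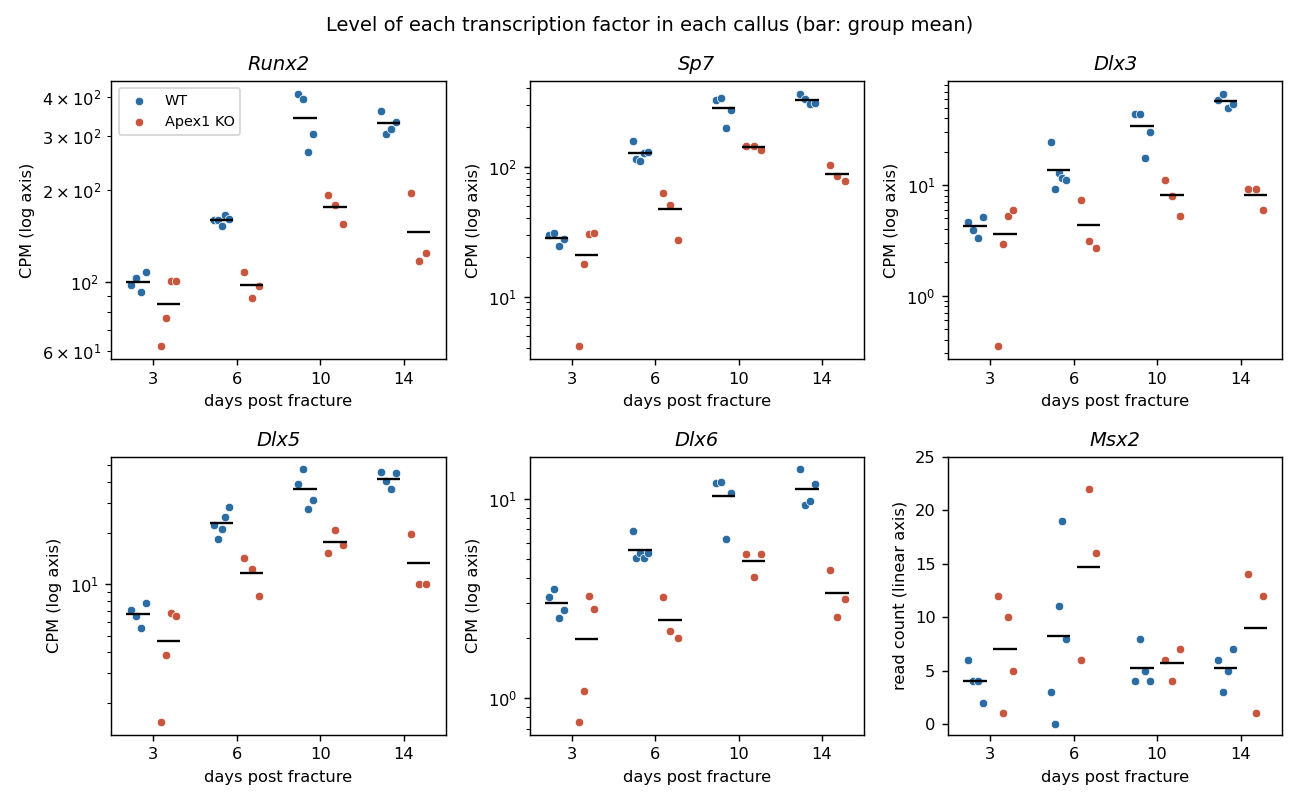
Level of each of the 6 transcription factors in each callus by days post fracture, with WT and Apex1 KO mice as separate points and a bar at each group mean; the y axis is CPM on a log scale, and read counts on a linear scale for Msx2. From 6-dpf on, the Apex1 KO points of 5 factors lie below all WT points of the same day, while the 3-dpf points overlap and Msx2 stays at 22 reads or fewer.

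Runx2, which commits progenitors to the osteoblast lineage, had close levels within the WT groups of 3- and 6-dpf. At 3-dpf its level was 98.2, 103, 93.3 and 108 CPM in the 4 WT mice and 61.9, 76.5, 101 and 101 CPM in the 4 Apex1 KO mice, so that the groups overlapped (log2 difference -0.22 ± 0.15, adjusted p = 0.877). At 6-dpf the 5 WT mice had 160, 159, 152, 166 and 161 CPM and the 3 Apex1 KO mice 108, 88.9 and 97.4 CPM. Every Apex1 KO callus of 6-dpf was thus below the lowest WT callus, and the mean of 160 ± 5.15 CPM (SD, n = 5) in WT stood against 98.3 ± 9.76 CPM (SD, n = 3) in Apex1 KO mice (log2 difference -0.66 ± 0.09, adjusted p = 0.00248). At 10-dpf the WT mice had 411, 395, 265 and 304 CPM and the Apex1 KO mice 193, 179 and 155 CPM (-0.87 ± 0.11, adjusted p = 0.00798). At 14-dpf the WT mice had 362, 305, 316 and 333 CPM and the Apex1 KO mice 195, 117 and 125 CPM (-1.29 ± 0.23, adjusted p = 0.0147). The lowest Runx2 level of any 10- or 14-dpf WT callus, 265 CPM, was above the highest Apex1 KO level of those days.

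Sp7, the zinc finger factor that acts after Runx2, covered a wider range. At 3-dpf it was at 30, 30.9, 24.6 and 27.9 CPM in WT and at 4.13, 17.8, 30.2 and 31.1 CPM in Apex1 KO mice (log2 difference -0.41 ± 0.54, adjusted p = 0.933), where the spread among Apex1 KO mice was the wider. At 6-dpf it was at 158, 115, 111, 127 and 129 CPM in WT and at 62.8, 50.8 and 27.4 CPM in Apex1 KO mice (-1.36 ± 0.22, adjusted p = 0.00675). At 10-dpf it was at 327, 340, 198 and 271 CPM in WT and at 144, 145 and 134 CPM in Apex1 KO mice (-0.92 ± 0.14, adjusted p = 0.0145). The 3 Apex1 KO levels of 10-dpf were nearly the same, whereas the WT levels spread from 198 to 340 CPM. At 14-dpf it was at 364, 331, 302 and 309 CPM in WT and at 103, 85 and 76.8 CPM in Apex1 KO mice (-2.02 ± 0.14, adjusted p = 0.000586), that is 4.05-fold lower in the fit.

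Dlx3, a homeodomain factor expressed in osteoblasts and in tooth and hair follicle cells, showed the largest difference of the 6 at 6-, 10- and 14-dpf. At 3-dpf it was at 4.59, 3.95, 3.31 and 5.11 CPM in WT and at 0.347, 2.9, 5.24 and 6 CPM in Apex1 KO mice (log2 difference -0.22 ± 0.67, adjusted p = 0.974). At 6-dpf it was at 24.3, 9.17, 12.8, 11.6 and 11.1 CPM in WT and at 7.31, 3.12 and 2.68 CPM in Apex1 KO mice (-1.49 ± 0.29, adjusted p = 0.0131). WT replicate 1 of 6-dpf was well above the other 4, and without it the difference was -1.33 with an adjusted p of 0.0126. At 10-dpf it was at 43.8, 43.8, 17.7 and 30.3 CPM in WT and at 11.2, 7.98 and 5.2 CPM in Apex1 KO mice (-1.89 ± 0.22, adjusted p = 0.00933). At 14-dpf it was at 59.3, 67, 50 and 53.7 CPM in WT and at 9.13, 9.28 and 5.89 CPM in Apex1 KO mice (-2.84 ± 0.24, adjusted p = 0.000928). The Apex1 KO mean was 8.13 ± 3.01 CPM at 10-dpf and 8.1 ± 1.91 CPM at 14-dpf (SD, n = 3 each), beside 33.9 ± 12.5 and 57.5 ± 7.41 CPM in WT (SD, n = 4 each).

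Dlx5, a BMP-responsive activator that lies upstream of Sp7 in osteoblast precursors, was at 7.07, 6.52, 5.53 and 7.75 CPM in WT and at 1.55, 3.84, 6.77 and 6.5 CPM in Apex1 KO mice at 3-dpf (log2 difference -0.51 ± 0.41, adjusted p = 0.891). At 6-dpf it was at 22.3, 18.5, 21, 24.8 and 28.3 CPM in WT and at 14.2, 12.3 and 8.54 CPM in Apex1 KO mice (-0.89 ± 0.17, adjusted p = 0.0112). At 10-dpf it was at 38.9, 47.3, 27.8 and 31.2 CPM in WT and at 15.3, 20.7 and 17.1 CPM in Apex1 KO mice (-0.96 ± 0.19, adjusted p = 0.0302). The 10-dpf groups were apart by the step from 20.7 to 27.8 CPM. At 14-dpf it was at 45.5, 40.5, 36.2 and 45 CPM in WT and at 19.8, 10 and 10.1 CPM in Apex1 KO mice (-1.75 ± 0.33, adjusted p = 0.0184), with Apex1 KO replicate 1 above the other 2.

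Dlx6, the close relative transcribed next to Dlx5, was the lowest of the 5 called factors per length. At 3-dpf it was at 3.21, 3.54, 2.52 and 2.76 CPM in WT and at 0.757, 1.09, 3.26 and 2.79 CPM in Apex1 KO mice (log2 difference -0.56 ± 0.41, adjusted p = 0.879). At 6-dpf it was at 6.87, 5.01, 5.32, 5.06 and 5.32 CPM in WT and at 3.21, 2.18 and 2.01 CPM in Apex1 KO mice (-1.06 ± 0.19, adjusted p = 0.00837). The 4 WT mice other than replicate 1 lay within a narrow range of 5.01 to 5.32 CPM, all above the Apex1 KO mice. At 10-dpf it was at 12, 12.1, 6.27 and 10.6 CPM in WT and at 5.25, 4.05 and 5.29 CPM in Apex1 KO mice (-0.98 ± 0.21, adjusted p = 0.0333). At 14-dpf it was at 14, 9.33, 9.7 and 11.8 CPM in WT and at 4.37, 2.55 and 3.14 CPM in Apex1 KO mice (-2.03 ± 0.27, adjusted p = 0.00407). The lowest WT callus of 10-dpf, at 6.27 CPM, came close to the highest Apex1 KO callus at 5.29 CPM.

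Msx2, a homeodomain repressor best known from skull and tooth development, was near the limit of detection in tibial callus. Its read counts were 6, 4, 4 and 2 in WT and 12, 1, 10 and 5 in Apex1 KO mice at 3-dpf, and 3, 0, 11, 19 and 8 in WT and 6, 22 and 16 in Apex1 KO mice at 6-dpf. They were 4, 8, 5 and 4 in WT and 6, 4 and 7 in Apex1 KO mice at 10-dpf, and 6, 3, 5 and 7 in WT and 14, 1 and 12 in Apex1 KO mice at 14-dpf. The groups overlapped at every day, and the highest level was 0.641 CPM. It passed the filter on low counts at 6- and 14-dpf alone, with log2 differences of 0.54 ± 0.83 (adjusted p = 0.749) and 0.40 ± 1.07 (adjusted p = 0.843). At so few reads these differences were known with wide errors only.

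Of the members tested, 0 of 5 were called at 3-dpf, where 0% of 19866 genes were called by edgeR, 1216 genes had an unadjusted p under 0.05 and DESeq2 called 85 genes, none of them a member. At 6-dpf 5 of 6 members were called lower, against 5.61% of 20260 genes, and 5 of 6 lay wholly below WT, against 11.9% of genes. At 10-dpf 5 of 5 were called lower, against 3.44% of 18910 genes, and 5 of 5 lay wholly below WT, against 10.5% of genes. At 14-dpf 5 of 6 were called lower, against 7.04% of 20228 genes, and 5 of 6 lay wholly below WT, against 23.5% of genes. The median log2 difference of the members tested was -0.41 at 3-dpf, -0.98 at 6-dpf, -0.96 at 10-dpf and -1.88 at 14-dpf, beside 0.00, 0.01, 0.00 and 0.04 over all genes tested. DESeq2 called the same number of members at each day.

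**Figure D2:**
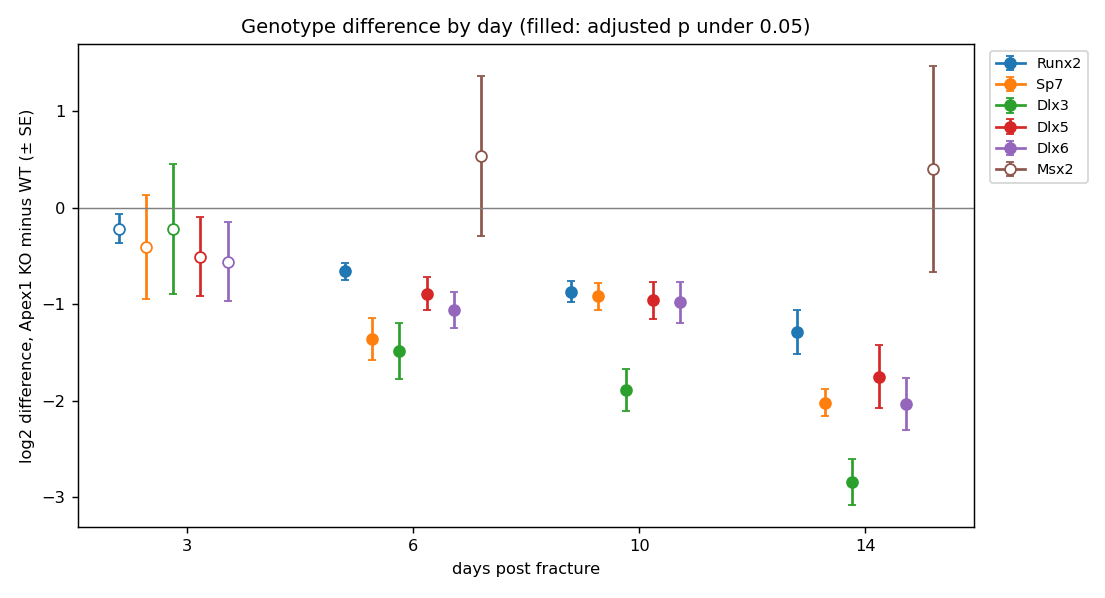
Log2 difference between Apex1 KO and WT mice for each factor by days post fracture, with bars of 1 SE; filled points have an adjusted p under 0.05. Runx2 lies nearest to 0 among the called factors at each of 6-, 10- and 14-dpf (-0.66, -0.87 and -1.29) and Dlx3 farthest from it (-1.49, -1.89 and -2.84).

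Leaving out each mouse in turn kept the direction of all 5 factors at 6-, 10- and 14-dpf, but the calls of 10-dpf rested on few mice. Without Apex1 KO replicate 1 of 10-dpf, the only female of its group, none of the 5 was called: Runx2 was at -0.78 (adjusted p = 0.0585), Sp7 at -0.75 (0.0969), Dlx3 at -1.86 (0.0909), Dlx5 at -0.65 (0.117) and Dlx6 at -0.86 (0.221), and 42 genes were called in all. Without WT replicate 1 or 2 of that day, Runx2 and Dlx3 were the members still called. At 6-dpf the calls of Runx2, Sp7, Dlx5 and Dlx6 held in all 8 such fits, and that of Dlx3 was lost without WT replicate 4 (-1.36, adjusted p = 0.0503) or Apex1 KO replicate 3 (-1.38, adjusted p = 0.0529). At 14-dpf all 5 stayed called in the 6 fits that could be made. All 3 Apex1 KO mice of that day were female but of the WT mice only replicate 1, and the fit that holds sex constant compared the genotypes through that single WT mouse. With no sex term and without that mouse, the log2 differences were -1.09 for Runx2, -1.78 for Sp7, -2.76 for Dlx3, -1.56 for Dlx5 and -1.57 for Dlx6, each with an adjusted p of 0.00517 or less.

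**Figure D3:**
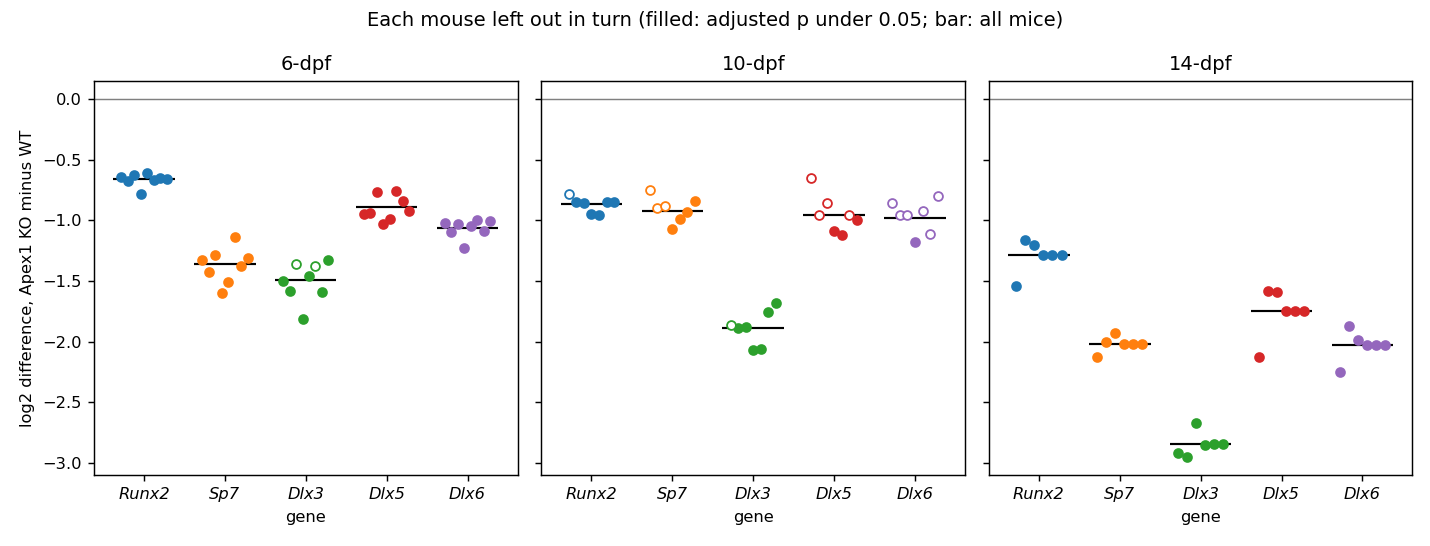
Log2 difference between Apex1 KO and WT mice at 6-, 10- and 14-dpf for 5 factors, with 1 point for each mouse left out and a black bar for the fit with all mice; filled points have an adjusted p under 0.05. All points lie below 0; the open points are mostly at 10-dpf, where each of the 5 factors has at least 1.

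Apex1 KO replicate 1 of 3-dpf had the lowest level of its group for Sp7, Dlx3, Dlx5 and Dlx6. It had 4.13 CPM of Sp7, 0.347 CPM of Dlx3 and 1.55 CPM of Dlx5, where the other 3 Apex1 KO mice had 17.8 to 31.1, 2.9 to 6 and 3.84 to 6.77 CPM, while for Dlx6 its 0.757 CPM was near the 1.09 CPM of replicate 2. The same library had the highest summed level of 10 muscle markers at 3-dpf (11236 CPM, against 4578 to 7991 in the other Apex1 KO mice and 3273 to 4637 in WT) and the lowest summed level of 9 osteoblast markers (9829 CPM, against 14737 to 17937 in WT). In summed level it was also the lowest 3-dpf library for chondrocyte, osteoclast, neutrophil, erythroid, B cell, and T and NK cell markers. It was the highest for macrophage markers, and within the range of the other 3-dpf libraries for endothelial and adipocyte markers. This library thus differed in markers of many cell types, not of muscle and osteoblasts alone. The share of muscle or of any other cell type in its levels of Sp7, Dlx3, Dlx5 and Dlx6 was not tested. Without that mouse the 3-dpf log2 differences were -0.11 for Runx2, -0.10 for Sp7, 0.14 for Dlx3, -0.24 for Dlx5 and -0.33 for Dlx6, and 0 members and 6 genes were called. In an alternative fit, with replicate number as a block in place of sex, the 5 differences were -0.27, -0.72, -0.56, -0.69 and -0.80, in the same order. That fit called 0 members and 1 gene. The labels do not say whether the replicate numbers of 3-dpf mark pairs, and the main fit was unpaired.

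In WT mice, 4 of the 6 factors were called higher from 3- to 6-dpf, when bone and cartilage form in the callus. Sp7 rose by 2.10 ± 0.41 on the log2 scale (adjusted p = 0.00181), Dlx5 by 1.70 ± 0.31 (adjusted p = 0.000785), Dlx3 by 1.53 ± 0.53 (adjusted p = 0.0418) and Runx2 by 0.63 ± 0.12 (adjusted p = 0.000914). Dlx6 was at 0.78 ± 0.30 (adjusted p = 0.0564), although its WT levels of 6-dpf, 5.01 CPM and above, lay over all those of 3-dpf, 3.54 CPM and below. The 4 calls stood against 15.4% of 20468 genes called higher, and the 5 factors without overlap against 16% of genes. The Dlx3 call was lost in 7 of the 16 fits with a mouse left out.

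In Apex1 KO mice, Dlx5 was the single member called from 3- to 6-dpf, at 1.32 ± 0.34 (adjusted p = 0.0186), against 7.1% of genes called higher. Sp7 was at 1.15 ± 0.44 (adjusted p = 0.104), Dlx6 at 0.32 (adjusted p = 0.603), Runx2 at 0.21 (adjusted p = 0.334) and Dlx3 at 0.18 (adjusted p = 0.885). The Dlx5 call was lost without Apex1 KO replicate 1 (adjusted p = 0.0754) or 2 (adjusted p = 0.0899) of 6-dpf or replicate 2 of 3-dpf (adjusted p = 0.054). The change itself was compared between the genotypes with an interaction term, which called 0 of 6 members in edgeR, as in DESeq2, and 1.3% of genes, while 1 member, Runx2, had an unadjusted p under 0.05. The differences of change were -1.35 for Dlx3 (adjusted p = 0.536), -0.95 for Sp7 (0.582), -0.47 for Dlx6 (0.766), -0.42 for Runx2 (0.338) and -0.38 for Dlx5 (0.825). A weaker rise in Apex1 KO mice was therefore not shown for any member, and the spread of the 3-dpf Apex1 KO mice was wide.

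From 10- to 14-dpf, Dlx3 was the single member called higher in WT mice, at 0.97 ± 0.23 (adjusted p = 0.0173), against 6.19% of 19705 genes. Runx2 was at 0.02, Dlx6 at 0.23, Dlx5 at 0.26 and Sp7 at 0.28 (adjusted p = 0.173). In Apex1 KO mice, Sp7 was the single member called lower, against 0.228% of genes. It went from 144, 145 and 134 CPM to 103, 85 and 76.8 CPM (-0.87 ± 0.16, adjusted p = 0.0368). Dlx6 was at -0.80 (adjusted p = 0.179), Dlx5 at -0.56 (0.413), Runx2 at -0.49 (0.241) and Dlx3 at -0.36 (0.635). Msx2, at its low counts, was at 0.26 (0.905). The difference between the WT and Apex1 KO changes was called for Sp7 (-1.15 ± 0.21, adjusted p = 0.0402), against 0.396% of genes called lower. It was -1.33 ± 0.40 for Dlx3 (adjusted p = 0.189), -1.02 for Dlx6 (0.215), -0.81 for Dlx5 (0.402) and -0.51 for Runx2 (0.395). Which mice entered decided these late calls. The Sp7 difference of change was lost in 11 of the 14 fits with a mouse left out (adjusted p from 0.0319 to 0.112) and with no sex term (-0.84, adjusted p = 0.0884), its fall in Apex1 KO mice in 10 of 14, and the Dlx3 rise without WT replicate 3 of 10-dpf (0.74, adjusted p = 0.0578) or with no sex term (0.75, adjusted p = 0.109).

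Ordered by group mean, WT 14-dpf was the highest group for Sp7, Dlx3, Dlx5 and Dlx6, and WT 10-dpf for Runx2. Apex1 KO mice of 10-dpf ranked beside WT mice of 6-dpf for all 5 factors, and the ranges of these neighbouring groups overlapped. Apex1 KO mice of 3-dpf were the lowest group for all 5. For Runx2, the groups of WT 14-dpf and Apex1 KO 10-dpf were neighbours in order without overlap, as were those of Apex1 KO 14-dpf and WT 3-dpf. For Dlx3, WT 14-dpf lay wholly above WT 10-dpf, and no other neighbours in its order were separated. For Dlx6, no neighbours in order were separated. In these orders the step from 6- to 10-dpf also carries the change in sample names and library totals.

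Per kilobase of exon, the group mean of Sp7 was below that of Runx2 at 3-dpf and above it from 6-dpf on, in both genotypes. In Apex1 KO callus of 6-dpf these means were close, and Sp7 ranged from 27.4 to 62.8 CPM among the mice, so the order there is uncertain. Exon length was merged over all transcripts of a gene. At 3-dpf WT callus had 7.47 CPM per kilobase of Sp7 and 11.4 of Runx2, at 6-dpf 33.8 and 18.1, and at 14-dpf 86 and 37.2. In Apex1 KO callus Sp7 was at 5.49 and Runx2 at 9.64 CPM per kilobase at 3-dpf, at 12.4 and 11.1 at 6-dpf, and at 23.3 and 16.5 at 14-dpf. At 10-dpf the levels were 74.8 and 38.9 in WT and 37.2 and 19.9 in Apex1 KO callus. On this length-corrected scale, WT callus of 14-dpf had 22 CPM per kilobase of Dlx3, 18.4 of Dlx5 and 4.12 of Dlx6, so Dlx3 stood above Dlx5. In Apex1 KO callus of 14-dpf the same levels were 3.1, 5.86 and 1.23, with Dlx5 above Dlx3. Dlx5 also stood above Dlx3 in WT callus of 3-dpf (2.96 against 1.62), 6-dpf (10.1 against 5.28) and 10-dpf (16 against 13). The same order held in Apex1 KO callus of those days (2.05 against 1.39, 5.14 against 1.67 and 7.79 against 3.11). Msx2 was at 0.0749 in WT and 0.114 in Apex1 KO callus, below the other 5 in all groups.

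Because the 5 factors were lower together, each was also read as a ratio to Runx2 within the same library, which takes out depth and any scaling of the library. Over 6-, 10- and 14-dpf, the mean log2 difference of this ratio between Apex1 KO and WT mice was -1.25 for Dlx3, -0.51 for Sp7, -0.37 for Dlx6 and -0.29 for Dlx5. An exact permutation test of genotype within day, two-sided, gave p = 4.37e-05 for Dlx3, 0.00019 for Sp7, 0.00217 for Dlx6 and 0.00899 for Dlx5. These are 4 tests, unadjusted, over 22 mice. Runx2 had the narrowest gap of the 5 factors at these days, so the direction of the ratios follows from the levels above. The 3-dpf mice were left out because no gene was called there in an earlier analysis of these data. With all 4 days the values were -1.07 for Dlx3, -0.51 for Sp7, -0.42 for Dlx6 and -0.33 for Dlx5. The exact permutation p was then 0.00226 or less for each. Leaving out each of the 22 mice gave -1.37 to -1.16 for Dlx3, -0.57 to -0.39 for Sp7, -0.42 to -0.32 for Dlx6 and -0.33 to -0.22 for Dlx5, with p of 0.0331 or less. Neither this permutation test nor those against other references below took sex into account. At 14-dpf all Apex1 KO mice were female and most WT mice male.

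Dlx3 carried the clearest of these shifts. Its log2 ratio to Runx2 at 14-dpf was -2.61, -2.19, -2.66 and -2.63 in WT and -4.41, -3.66 and -4.40 in Apex1 KO mice, and at 10-dpf it was -3.23, -3.17, -3.90 and -3.33 in WT and -4.11, -4.48 and -4.90 in Apex1 KO mice. At 6-dpf it was -2.71, -4.12, -3.57, -3.84 and -3.86 in WT and -3.89, -4.84 and -5.19 in Apex1 KO mice, where 1 WT value lay within the Apex1 KO range. The genotypes were apart at 10- and 14-dpf. Sp7 relative to Runx2 was lower by a mean of -0.81 at 6-dpf and -0.68 at 14-dpf, while at 10-dpf it was -0.33, -0.22, -0.42 and -0.17 in WT and -0.43, -0.30 and -0.21 in Apex1 KO mice, a mean difference of -0.03. At 10-dpf Dlx5 (-0.07) and Dlx6 (-0.09) too were nearly level with Runx2, and of the 4 ratios that of Dlx3 alone was clearly below WT (-1.09). On a log2(CPM + 1) scale, the Dlx6 shift was -0.16 with an exact permutation p of 0.0714.

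**Figure D4:**
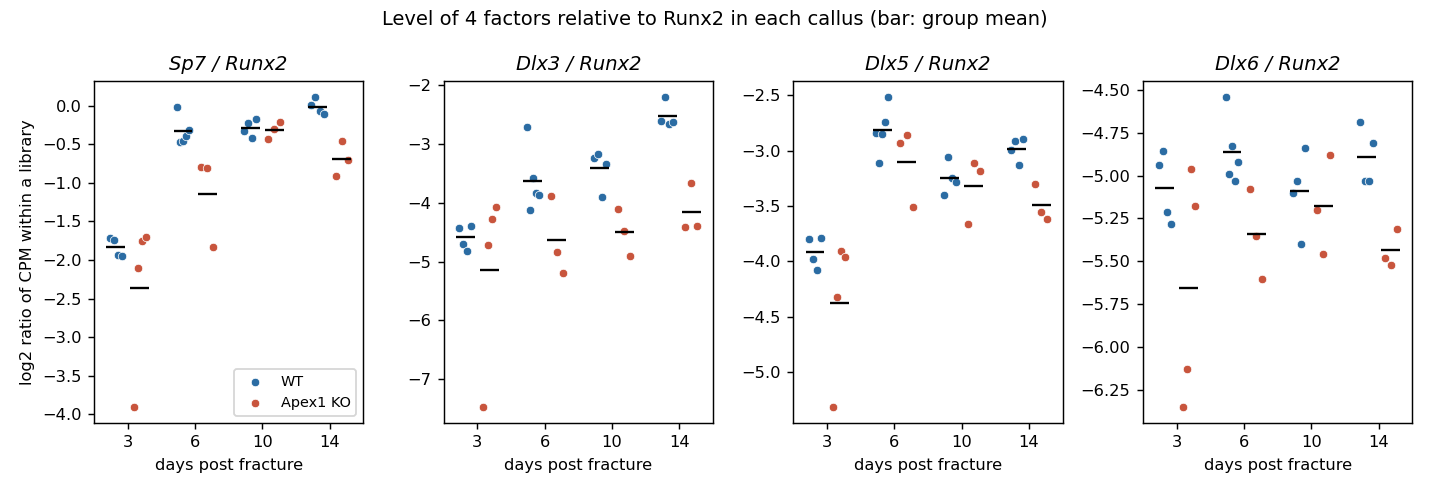
Log2 ratio of Sp7, Dlx3, Dlx5 and Dlx6 to Runx2 in each callus by days post fracture, with WT and Apex1 KO mice as separate points and a bar at each group mean. At 14-dpf the 3 Apex1 KO points lie below all 4 WT points in each panel; at 10-dpf they do so for Dlx3.

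The choice of the reference gene set which members stood out. Read against Sp7 in place of Runx2, Dlx3 was still lower (-0.74, exact permutation p = 0.000612), Dlx5 was at 0.22 (p = 0.0556) and Dlx6 at 0.14 (p = 0.189). Read against the mean log2 level of 9 osteoblast markers, a reference chosen after the data were seen, Dlx3 was at -0.88 (exact permutation p = 0.000277), Runx2 at 0.37 (p = 0.0106), Sp7 at -0.14 (p = 0.129), Dlx5 at 0.08 (p = 0.601) and Dlx6 at -0.0031 (p = 0.982). Dlx3 was thus the member lower against each of the 3 references.

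Across the 30 libraries the 5 expressed factors varied together, with Pearson r between pairs of log2 CPM from 0.92 to 0.98. These values share the course of repair and the genotype, and after removal of the 8 group means r was 0.69 to 0.93, highest for Sp7 with Dlx3. Apex1 KO replicate 1 of 3-dpf enters each r with group means removed, here and below, and r without it was not computed. That library had 4.13 CPM of Sp7 and 0.347 CPM of Dlx3, where replicate 2, the next lowest of its group, had 17.8 and 2.9 CPM. Msx2, at its low counts, had r between -0.03 and 0.16 with the other 5. The search ran over the 13794 protein-coding genes that averaged 1 CPM or more, and the genes most like each member were read off as a description with no test. For Sp7 they were Fgfr2 (r = 0.987), a fibroblast growth factor receptor of osteoblast precursors, Slc13a5 (0.985), a citrate transporter, and Dlx5 (0.977), and with group means removed Fgfr2 (0.945), Slc13a5 (0.934) and Dlx3 (0.930). For Dlx5 they were Fgfr2 (0.980), Sp7 (0.977) and Foxc1 (0.975), and with group means removed Fgfr2 (0.932), Sdk2 (0.899) and Slc25a13 (0.898). Over the 17 WT libraries alone, Fgfr2 ranked 1 for Dlx5 (0.993) and 3 for Sp7 (0.991), after Slitrk6 (0.992) and Bambi (0.991).

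For Dlx3, Col22a1 (r = 0.973) and Col13a1 (0.962) were among the 3 genes most like it, and with group means removed the 3 were Robo2 (0.956), Ackr4 (0.946) and Pde5a (0.938). For Runx2 the genes most like it were Col24a1 (0.975), a collagen of forming bone, Carmil1 (0.969) and Col13a1 (0.968), and with group means removed Lrp4 (0.880), Hpgd (0.876) and Sema5a (0.870). For Dlx6 they were Col13a1 (0.954), Runx2 (0.946) and Dlx3 (0.945), and with group means removed Cadm1 (0.885), Phex (0.870), a mineralization gene of bone cells, and Fat3 (0.869). Over the 30 libraries Col13a1 was among the 3 genes most like Runx2, Dlx3 and Dlx6, but with group means removed, or over the WT libraries alone, it was among the 3 for none of them.

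The antisense transcript Dlx6os1, which spans Dlx6, had a like course but no called difference. Its mean was 3.17 ± 0.69 CPM in WT (SD, n = 5) and 2.05 ± 0.403 CPM in Apex1 KO mice (SD, n = 3) at 6-dpf, and 7.24 ± 0.884 (n = 4) and 5.16 ± 2.44 CPM (n = 3) at 14-dpf. The log2 differences were -0.81, -0.58, -0.56 and -0.54 at 3-, 6-, 10- and 14-dpf, with adjusted p-values of 0.864, 0.203, 0.15 and 0.436. Its r with Dlx6 over the 30 libraries was 0.88, and 0.82 with group means removed. Dlx4, the neighbour of Dlx3, passed the filter on low counts at 14-dpf alone, at -1.94 ± 0.56 (adjusted p = 0.0664), and at -1.91 with no sex term (adjusted p = 0.00564).

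The other Runx, Sp, Dlx and Msx genes were largely not called. Of 14 such genes 7 were tested at 3-, 6- and 10-dpf, with 0 called by edgeR (0, 3 and 3 at an unadjusted p under 0.05, and 0, 2 and 2 by DESeq2), and 9 at 14-dpf, with 2 lower and 0 higher. The 2 were Sp6, a close relative of Sp7 known from tooth and limb ectoderm (-2.08 ± 0.15, adjusted p = 0.000697), and Msx1, the relative of Msx2 (-1.36 ± 0.23, adjusted p = 0.00955). The median log2 difference of the family genes was -0.21 at 6-dpf, -0.06 at 10-dpf and -0.02 at 14-dpf, near that of all genes. The lists of related genes are described by their counts, beside genes called higher of 5.31% at 6-dpf, 3.01% at 10-dpf and 4.28% at 14-dpf.

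Of 12 partners and co-regulators of osteoblast factors, 5 were called lower and 2 higher at 6-dpf, 2 lower and 0 higher at 10-dpf and 3 lower and 1 higher at 14-dpf. Vdr, the vitamin D receptor, was lower at all 3 days, at -0.78, -1.24 and -1.91 (adjusted p = 0.011, 0.0481 and 0.0029). Cebpb (1.00, adjusted p = 0.00804) and Zbtb16 (1.02, adjusted p = 0.014) were higher at 6-dpf. Cbfb, the partner that Runx2 needs to bind DNA, was not called at any day (-0.16, -0.11, 0.08 and -0.25), but at 14-dpf with no sex term it was called lower (-0.23, adjusted p = 0.049). Fosl1, an AP-1 subunit, was called higher at 14-dpf (2.79, adjusted p = 0.0443), but its genotype ranges overlapped and it was at 0.39 with no sex term.

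Among 11 restrainers of osteoblast factors, 3 were called lower and 0 higher at 6-dpf, 1 lower and 1 higher at 10-dpf and 3 lower and 1 higher at 14-dpf. Hey1, a Notch and BMP target that represses Runx2 activity, was lower at 6-dpf (-1.22, adjusted p = 0.00687), at 10-dpf (adjusted p = 0.00854) and at 14-dpf (-3.26, adjusted p = 0.000354). Twist1, which binds and holds back Runx2, was at 0.01 at 6-dpf, -0.52 at 10-dpf (adjusted p = 0.0946) and -1.87 at 14-dpf (adjusted p = 0.00114). Sox9, the cartilage factor that holds back Runx2, was lower at 6-dpf (-1.83, adjusted p = 0.00589) and called higher at 14-dpf (2.24, adjusted p = 0.0321), where its ranges overlapped and the value with no sex term was 0.91 (adjusted p = 0.155). The median of the list was 0.01, 0.00 and -0.16, beside 0.01, 0.00 and 0.04 over all genes.

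Of 14 genes of the BMP pathway, whose signals induce Dlx5 and Runx2, 4 were called lower and 1 higher at 6-dpf, 4 lower and 0 higher at 10-dpf and 8 lower and 0 higher at 14-dpf. Bmp2, a ligand needed to start fracture repair, was at 0.37 at 3-dpf (adjusted p = 0.768) and not called. All 4 Apex1 KO mice of that day, at 9.43 to 11.4 CPM, lay above the 4 WT mice, at 7.24 to 9.1 CPM. The share of all genes apart in this way at 3-dpf was not counted, so this separation is a description only. Bmp2 was lower at 6-dpf (-0.53, adjusted p = 0.0209) and 10-dpf (-0.95, adjusted p = 0.00854). At 14-dpf it was at -0.38 (adjusted p = 0.176), and with no sex term it was called lower (-0.63, adjusted p = 0.00608). Smad9, a receptor-regulated Smad, was lower at 10-dpf (-1.39) and 14-dpf (-2.36, adjusted p = 0.00123). Smad6, an inhibitor that BMP signals induce, was lower at 6-, 10- and 14-dpf (-0.56, -0.95 and -2.06). The list median was -0.30, -0.31 and -0.56.

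Of 16 genes of bone matrix and bone cells, among them targets of Runx2 and Sp7, 11 were called lower and 2 higher at 6-dpf, 7 lower and 0 higher at 10-dpf and 9 lower and 0 higher at 14-dpf. The list median was -0.99, -0.82 and -1.37. At 6-dpf Smpd3, a neutral sphingomyelinase of mineralizing tissue (-3.15, adjusted p = 0.00106), Pth1r, the parathyroid hormone receptor (-2.14), and Ifitm5 (-1.95) were lower, and the osteocyte genes Mepe (2.04) and Sost (1.36) were higher. At 14-dpf with no sex term, Mepe (-1.10, adjusted p = 0.000297) and Sost (-0.86, adjusted p = 0.0322) were called lower. So was the matrix gene Dmp1 (-2.37, adjusted p = 0.000388) in that fit. Col1a1, the main collagen chain of bone, was lower by -0.88 ± 0.25 at 6-dpf (adjusted p = 0.0498), -1.01 ± 0.24 at 10-dpf (adjusted p = 0.042) and -2.55 ± 0.21 at 14-dpf (adjusted p = 0.000883). Ibsp, bone sialoprotein, was lower at 6-dpf (-1.48, adjusted p = 0.0276) and at -0.39 (adjusted p = 0.201) and -0.05 (adjusted p = 0.95) at 10- and 14-dpf. The 14-dpf value of Ibsp rested on the single WT female, and with no sex term it was -0.79 (adjusted p = 0.0819). Alpl, the phosphatase of early osteoblasts, was lower at 6-dpf (-1.78, adjusted p = 0.00578) and 10-dpf (-0.67, adjusted p = 0.0355) and at -0.91 at 14-dpf (adjusted p = 0.0508), where with no sex term it was called lower (-1.07, adjusted p = 0.00196). Bglap, osteocalcin, was not called at 6-dpf (-1.05, adjusted p = 0.0696), 10-dpf (-0.98, adjusted p = 0.185) or 14-dpf (-2.60, adjusted p = 0.118). Col1a1 had its widest gap at 14-dpf, as Runx2, Sp7, Dlx3, Dlx5 and Dlx6 did.

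Of 4 genes of hypertrophic cartilage, where Runx2 also acts, 3 were called lower at 6-dpf, 2 lower at 10-dpf and 2 higher at 14-dpf. Col10a1, the collagen of hypertrophic chondrocytes, was lower at 6-dpf (-3.96 ± 0.37, adjusted p = 0.000623), as was Ihh (-2.82), and Mmp13 (-1.24) and Vegfa (-0.80) were lower at 10-dpf. At 14-dpf Col10a1 (2.46, adjusted p = 0.0234) and Ihh (2.17, adjusted p = 0.0274) were called higher, but the genotype ranges overlapped, and with no sex term they were at 0.63 and 0.52 and not called.

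**Figure D5:**
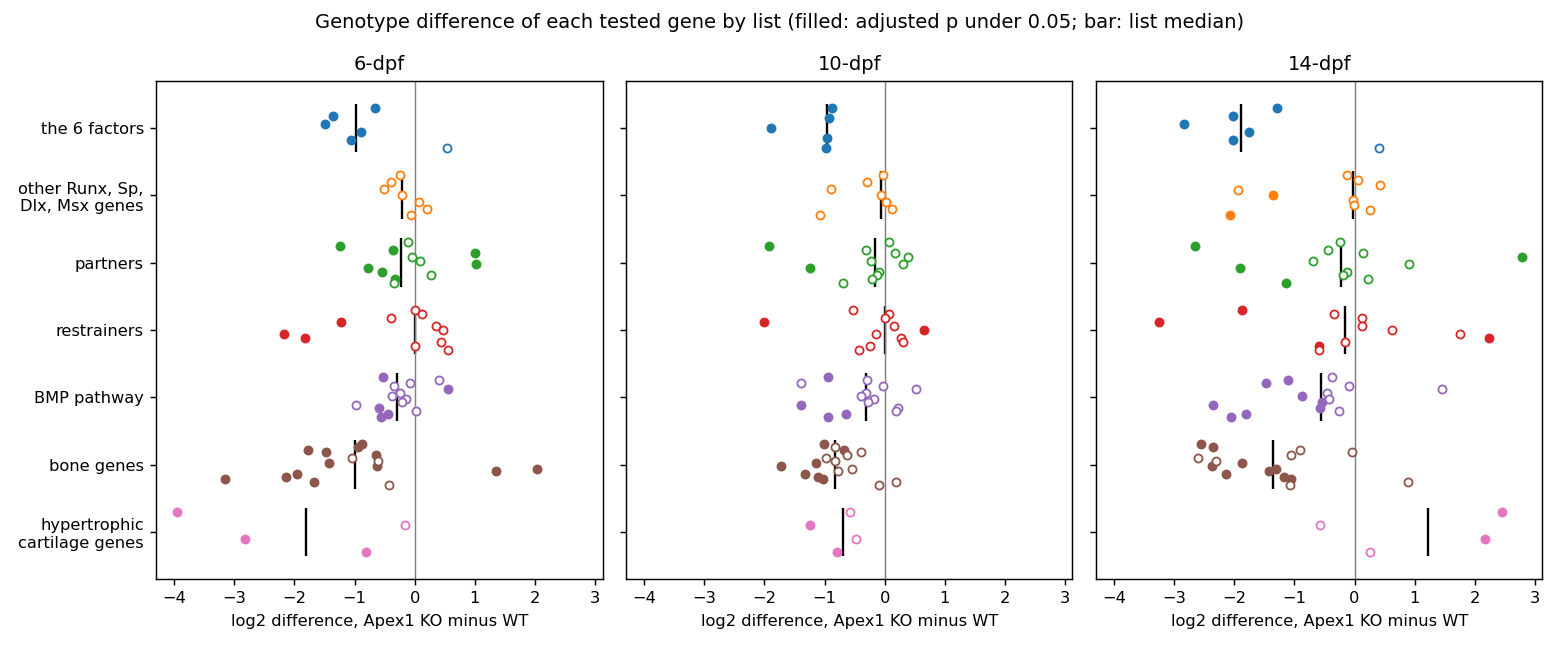
Log2 difference between Apex1 KO and WT mice for each tested gene of 7 lists at 6-, 10- and 14-dpf, with a bar at each list median; filled points have an adjusted p under 0.05. The 6 factors have medians of -0.98, -0.96 and -1.88, and the bone genes -0.99, -0.82 and -1.37, while the other Runx, Sp, Dlx and Msx genes stay at -0.21, -0.06 and -0.02.

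Osteoblast markers were, as a sum, lower in Apex1 KO callus at 6-, 10- and 14-dpf, while markers of other cell types went in both directions. The summed level of 9 osteoblast markers, all of them also in the list of bone genes, was 39382 to 54723 CPM in WT and 18212 to 28322 CPM in Apex1 KO mice at 6-dpf, 45445 to 63078 and 20020 to 30253 CPM at 10-dpf, and 74986 to 100847 and 18840 to 21535 CPM at 14-dpf. None of these markers was at 0 in a whole group, and 0, 7, 5 and 4 of 9 were called lower at 3-, 6-, 10- and 14-dpf. The 10 chondrocyte markers summed to 30720 to 55914 CPM in WT and 2115 to 4317 CPM in Apex1 KO mice at 6-dpf, with 10 of 10 called lower, and to 15676 to 42585 and 10952 to 19007 CPM at 10-dpf, with 0 called by edgeR (2 at an unadjusted p under 0.05 and 2 by DESeq2). At 14-dpf their sums overlapped (2385 to 6728 CPM in WT and 4254 to 4847 CPM in Apex1 KO mice), and the fit with sex called 9 of 10 higher and 1 lower, with the lowest sum in the only WT female. Muscle markers summed to 2872 to 5145 CPM in WT and 6647 to 15285 CPM in Apex1 KO mice at 6-dpf, with 9 of 10 called higher, to 1051 to 3395 and 2978 to 6443 CPM at 10-dpf, and to 1152 to 4011 and 2867 to 10104 CPM at 14-dpf, with 0 called by edgeR at both days (9 and 0 at an unadjusted p under 0.05, and 5 and 1 by DESeq2). Osteoclast markers were lower at 10-dpf (5 of 7 called) and 14-dpf (7 of 7), and macrophage markers were called higher for 6, 5 and 5 of 7 at 6-, 10- and 14-dpf, and lower for 2 at 14-dpf. Of the other cell types, 5 of 6 erythroid and 4 of 6 neutrophil markers were called higher and 3 of 6 endothelial markers lower at 14-dpf (1 of 6 at 10-dpf), and 3 and 4 of 5 adipocyte markers were called higher at 6- and 10-dpf. The erythroid markers summed to 821 to 908 CPM in WT and 1905 to 2252 CPM in Apex1 KO mice at 14-dpf. Of 6 B cell markers 2 were called higher at 6-dpf, and of 6 T and NK cell markers 3, 2 and 1 at 6-, 10- and 14-dpf. The part of these cell types in the members' differences was not tested.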

How the data were processed

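The members and the gene lists were chosen with earlier results of these data known. RNA from homogenized fracture callus of 30 mice was sequenced as stranded, ribosome-depleted total RNA. The authors deposited raw counts per Ensembl gene, made with bcl2fastq 2.20, STAR 2.7.0d and featureCounts on mm39 per the submitters' processing notes, which also name DESeq2 1.32.0. Counting took strand into account, and the labels say only that replicates are separate samples, so p-values measure the spread between them. Gene names and positions were read from GRCm39 (GENCODE M39), where 54749 of 55416 IDs matched.

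From the counts, edgeR 4.0.16 in R 4.3.3 (filterByExpr, TMM, robust quasi-likelihood test) was fitted to each day with genotype and sex, and with 4 groups and sex to the pairs of days 3 and 6 or 10 and 14. SE is the log2 difference over the root of F. Levels are CPM after 1 TMM scaling. DESeq2 1.42.0, other scalings, filters and covariates, and each mouse left out were alternatives. The named genes were the members, up to 4 called genes of each list and day with the widest difference, a fixed set (1 of its genes is not reported here; Apex1, Cbfb, Twist1, Sox9, Bmp2, Alpl, Ibsp, Bglap, Col1a1, Col2a1, Col10a1, Dlx6os1) and the 3 genes most like each member. Dlx4 and Sost lay beyond that rule and were chosen after their values were seen. Same-numbered mice of both genotypes deviated together in all 4 pairs at 3-dpf alone (r from 0.126 to 0.5). Even there Apex1 KO replicate 3 was most like WT replicate 2. The labels give no pairing, so the main fits were unpaired and replicate number as a block was an alternative. Of 43 replicate pairs, none agreed within sampling noise (smallest chi-square per degree of freedom 5.65). The tests were checked on simulated counts. Python 3.11.15 with numpy 2.4.6 and pandas 2.3.3 gave the ratios and exact tests, and matplotlib 3.10.9 the plots.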

Additional observations from a re-analysis of the deposited data

Results flagged for a closer look

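In the 5 WT mice of 6-dpf, replicate 1 stood apart for Dlx3, at 24.3 CPM with the other 4 between 9.17 and 12.8 CPM, and for Dlx6, at 6.87 CPM with the other 4 between 5.01 and 5.32 CPM. Its gap to the nearest mouse was 0.762 of the group's range for Dlx3 and 0.831 for Dlx6, above Dixon's critical value of 0.71 for 5 samples. These were 2 of 30 groups tested, and chance flags about 1 in 20. The difference between the genotypes in the change of Sp7 from 10- to 14-dpf, -1.15 on the log2 scale, was past the threshold of its interaction test.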

How the results depend on the processing

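The 5 expressed factors kept their direction at 6-, 10- and 14-dpf under every alternative run. The number of members called stayed at 0 at 3-dpf in every fit, ranged from 4 to 5 at 6-dpf and from 0 to 5 at 10-dpf with a mouse left out, was 5 in all such fits at 14-dpf, and was 3 at 10-dpf with all 30 libraries in one model. With replicate number as a block in place of sex it was 0, 4, 4 and 5 in day order. In those fits Dlx5 was lost at 6-dpf (-0.83, adjusted p = 0.0514) and Dlx6 at 10-dpf (adjusted p = 0.0665). What a replicate number marks is not in the labels. Dlx5 at 14-dpf was lost with no filter on low counts (adjusted p = 0.0723), Dlx6 at 10-dpf also with library size alone (-0.91, adjusted p = 0.0501), and Sp7 (adjusted p = 0.102) and Dlx5 (adjusted p = 0.0522) at 10-dpf with all 30 libraries.

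Counts over all genes moved more. At 3-dpf (0 genes) DESeq2 called 85, no filter 4, the replicate block 1, all 30 libraries 38, no sex term without Apex1 KO replicate 4 43, and a mouse left out 0 to 10. At 6-dpf (2212) library size alone gave 3594 (814 lower and 2780 higher, where the main split was 1137 and 1075), the block 677, and a mouse left out 890 to 2359. Library size alone moved the median of all genes by 0.20 at 6-dpf and 0.31 at 14-dpf. At 10-dpf (1221) DESeq2 gave 2187, no sex term 750, and a mouse left out 42 to 1827. At 14-dpf (2289) no sex term gave 6849, all 30 libraries 6188, a mouse left out 1206 to 3773, and no sex term with a mouse left out 6181, 6536, 6557, 5956, 5251, 4768 and 4942.

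For the changes over time, a mouse left out gave 3 to 5 members in WT from 3- to 6-dpf (4 with all mice), 0 to 2 in Apex1 KO mice (1), 0 to 1 in WT from 10- to 14-dpf (1), 0 to 2 in Apex1 KO mice (1) and 0 to 1 for the late difference of change (1). The count became 0 with no filter for Apex1 KO mice from 3- to 6-dpf and for WT from 10- to 14-dpf, 0 with no sex term for WT and for the late difference of change, and 0 with library size alone for the late difference of change and for Apex1 KO mice from 10- to 14-dpf; DESeq2 called 2 members for that difference.

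Values that turned sign were not called, apart from Col2a1. They were, with a mouse left out, Dlx3 at 3-dpf (-0.66 to 0.14) and Msx2 at 6-dpf (-0.09 to 1.56), the Msx2 difference of change from 3- to 6-dpf (0.15 with library size, 0.60 with the block, -0.51 to 0.74 with a mouse left out), Dlx3 in Apex1 KO mice from 3- to 6-dpf (-0.20 to 0.65 with a mouse left out) and from 10- to 14-dpf (0.02 with no sex term, 0.01 with the block), Runx2 in WT from 10- to 14-dpf (-0.08 with no sex term, -0.03 with library size, -0.06 with the block, -0.06 to 0.10 with a mouse left out) and Msx2 there (-0.07 with the block, -0.07 to 0.26 with a mouse left out). Col2a1 at 14-dpf, called higher with sex in the model (1.84), was at -0.18 with no sex term, -0.39 with all 30 libraries and -0.50, -0.10, -0.40, -0.06, -0.10 and -0.15 with no sex term and a mouse left out. Ratios to Runx2 kept their direction with each mouse left out. On log2(CPM + 1) Dlx6 was at -0.16; against the osteoblast markers Sp7 was at -0.14, Dlx5 at 0.08 and Dlx6 at -0.0031; against Sp7, Dlx5 was at 0.22 and Dlx6 at 0.14. The cause of these shifts was not tested.

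Depth limits Msx2, and the number of mice limits the rest: 4 Apex1 KO mice at 3-dpf and 3 at each later day, with sex and genotype nearly confounded at 14-dpf.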
